A study of Homo sapiens with 6 samples.

Results

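The genes described here are the forkhead factor FOXF1, the long noncoding RNA FENDRR that starts beside it, the forkhead genes FOXF2, FOXL1 and FOXC2, and the hedgehog pathway genes GLI1, GLI2, GLI3, PTCH1 and HHIP. They are 10 of the 58735 genes in a table of RNA-Seq counts, and were taken by name. The members were chosen by their log2 fold changes between these same groups, among other grounds, since the list was drawn up with the outcome of this comparison known, and their own differences are given as a description, with standard errors and no test. All libraries came from H1155, an established cell line labelled as neuroendocrine large cell lung cancer, grown in DMEM with 10% FBS and not treated. There were 3 libraries labelled WT (wild-type) and 3 labelled GFI1-KO. The GFI1-KO cells had been transfected with Cas9 and a pair of sgRNAs against the promoter region of GFI1, a zinc finger repressor of transcription, and sorted as monoclonal GFP+ clones. The sources used here do not say how many clones were sequenced or whether the libraries of a group came from separate cultures, so the errors below measure the spread between these libraries only, which may be technical, and differences between clones and an effect of the edit cannot be told apart.

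In hedgehog signaling a secreted ligand (SHH, IHH or DHH) binds the receptor PTCH1 and so releases the membrane protein SMO from inhibition. SMO then shifts the balance of the GLI zinc finger factors, of which GLI1 and GLI2 act mainly as activators and GLI3 mainly as a repressor. GLI1, PTCH1 and HHIP, a membrane protein that traps the ligand, are themselves classical GLI target genes and serve as readouts of the pathway. In the developing lung, hedgehog ligand from the epithelium acts on the surrounding mesenchyme, where FOXF1 is a known target. FOXF1 is required for lung mesenchyme and vessels, its loss from a single allele in people causes a fatal misalignment of lung veins, and FENDRR is known for binding chromatin complexes of the Polycomb and Trithorax groups.

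Library totals lay between 14882914 and 17692882 counts, at which 3 counts, taken as the floor of detection, correspond to 0.170 to 0.202 CPM (counts scaled to library size). GFI1 was counted 153, 106 and 125 times in the WT libraries and 174, 188 and 170 times in the libraries labelled GFI1-KO, so the targeted gene was not lower where the label says that it was knocked out. Its log2 fold change was 0.31 (SE 0.12, Benjamini-Hochberg adjusted p = 0.0273 in the quasi-likelihood test of edgeR). Of 16 alternative settings 7 no longer called it, among them DESeq2, the test named in the study's methods (0.31). Others of the 7 were those without WT replicate 2 (0.21), WT replicate 3 (0.28) or GFI1-KO replicate 2 (0.27). The correction for GC content described below was also among them (0.041). These counts cover the gene and not the targeted promoter, so they do not check the edit itself. The study examined GFI1 protein in WT and GFI1-KO H1155 cells by immunoblot, and RNA counts do not measure protein. Of 17514 genes that passed the filter on low counts, 12680 differed between the groups. All 12 neuroendocrine marker genes passed that filter and their summed level, in FPKM (fragments per kilobase of gene, scaled to library size), was 689 to 701 in the WT libraries and 723 to 732 in the others. The fold change also followed GC content over all tested genes (Spearman rho 0.58, a description across genes that share the libraries), and named genes that a correction for GC content and length took across the threshold are marked with the corrected value.

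Of the 10 genes, 8 passed the filter and 2, GLI2 and HHIP, did not. At the threshold used for all genes (edgeR's quasi-likelihood test, adjusted p of 0.05), 5 of the 8 lay on the higher side, as did 36.5% of all tested genes, and 1 on the lower side, as did 35.9%. In either direction it was passed by 72.4% of all tested genes. The members' counts are no test of them, since they were chosen with this contrast known, and nothing is read from them. FOXF1, FENDRR and FOXC2 passed the filter through the libraries in which they were high, and with at least 10 counts required in every library 5 members remained, of which 2 were higher and 1 lower. A log2 fold change of at least 2 in size was reached by 4.12% of tested genes. Among the members it was reached by FENDRR, FOXF1, FOXC2, GLI1 and GLI3, which lie at both ends of the scale.

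FOXF1 (ENSG00000103241) lies on the plus strand of chromosome 16 at chr16:86510527-86515418 of GRCh38/hg38. It was counted 5, 1 and 4 times in the WT libraries and 1184, 1229 and 1264 times in the libraries labelled GFI1-KO. The WT libraries thus sit around the floor of 3 counts, 1 below it and 2 just above, and the 3 others are close to each other and far above. Normalized counts went from 3.48 ± 2.10 to 1161 ± 30.9 (SD, n = 3 in each group), with a log2 fold change of 8.31 (SE 0.15). The ratio of summed counts was 329, and its 95% Poisson interval of 179 to 686, which covers counting error only, is set by the 10 WT counts. Per length, its level rose from 0.0600 to 19.8 FPKM. Of the tested genes, 0.531% had a lower mean FPKM than FOXF1 in the WT libraries and 84.7% in the libraries labelled GFI1-KO.

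FENDRR (ENSG00000268388), a noncoding RNA whose name stands for FOXF1 adjacent noncoding developmental regulatory RNA, is read from the minus strand at chr16:86474529-86509099. Its counts were 2, 2 and 3 in the WT libraries and 1567, 1608 and 1608 in the libraries labelled GFI1-KO. No WT library exceeded the floor, and the other 3 lay close together. Normalized counts went from 2.47 ± 0.59 to 1510 ± 15.6 (SD, n = 3), a log2 fold change of 9.18 (SE 0.13) that ranked 1 among 17514 tested genes, with FOXF1 at rank 2. The ratio of summed counts was 611 (95% Poisson interval 296 to 1521), and the level per length rose from 0.0221 to 13.3 FPKM.

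FENDRR and FOXF1 point away from each other, and 1427 bases lie between the FENDRR end and the FOXF1 start in the deposited annotation. The RefSeq promoter table of GRCh38.p14 held entries for 5 of the 10 members (FENDRR, FOXF2, GLI2, PTCH1 and HHIP) and none for FOXF1, FOXL1, FOXC2, GLI1 and GLI3. The 250 bases before the RefSeq start of FENDRR are shown because FENDRR changed most of all tested genes. They lie at chr16:86508861-86509110 on the minus strand, largely inside the deposited FENDRR interval, and are written 5′ to 3′ with a match to the forkhead motif GTAAACA in capitals.
FENDRR: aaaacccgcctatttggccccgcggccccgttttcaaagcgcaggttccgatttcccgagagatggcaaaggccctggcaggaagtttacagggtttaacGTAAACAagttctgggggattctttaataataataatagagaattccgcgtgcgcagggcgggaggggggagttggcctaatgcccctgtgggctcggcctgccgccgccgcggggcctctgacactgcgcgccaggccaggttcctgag
The match lies 144 to 150 bases before the start. The forkhead motif was found on either strand in 2.98% of the 250-base windows of 35116 promoter entries. No match to the GLI motif GACCACCCA, the GFI1 core AAATCA or the TATA box TATAAA was found on either strand of these letters, and such windows held them in 0.199%, 11.6% and 10.7% of entries. GC content was 59.2%, with 19 CG pairs, where the median over all entries was 58.0% and 11. A match is a description of letters and not a site of binding.

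The level of FENDRR relative to FOXF1, as a ratio of FPKM within a library, was 0.685, 0.677 and 0.658 in the libraries labelled GFI1-KO. The spread of this ratio was small, 0.673 ± 0.0136 (SD, n = 3). In the WT libraries it was 0.207, 1.03 and 0.388, which rests on 1 to 5 counts per gene and gives no usable ratio. In counts, FENDRR exceeded FOXF1 by a ratio of 1.30, since its model is longer (6795 against 3516 bases). The pattern most like that of FOXF1 over the 6 libraries was sought by the root mean square difference of centred log2 CPM. Among protein-coding genes the nearest were GRIK3, a kainate receptor subunit (1.01), IGFBP3, which binds insulin-like growth factors (1.22), SAMD11 (1.24), the fibrillar collagen gene COL3A1 (1.51) and the cancer-testis gene GAGE1 (1.65). Over all tested genes of any kind, FENDRR came at rank 2 with 0.469. This likeness mostly compares the size of a single difference between groups.

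Around FOXF1, 67 other genes lie within 1 Mb, of which 41 had any count and 17 passed the filter. Of the 17, edgeR called 9 higher and 3 lower, and 5 were not called. These are 52.9% and 17.6%, beside 36.5% and 35.9% of all tested genes. Among the 9 are LINC01081 and LINC02135, described below, and AC092127.2, chosen after its values were seen. They passed the filter through the libraries labelled GFI1-KO, in which they were high, so the filter fixed their direction. The median log2 fold change was 0.37, where it was 0.00 over all tested genes. Without the filter 14 of the 41 were higher. The largest changes of genes counted 20 times or more on average were modest, an increase of 1.32 (SE 0.34) for C16orf95, 0.75 (SE 0.27) for C16orf74 and 0.56 (SE 0.08) for MTHFSD, which lies between FOXF1 and FOXC2. C16orf74 lost the call with DESeq2 (0.75), without WT replicate 3 (0.66) or GFI1-KO replicate 3 (0.59) and with the correction for GC content (0.23). MAP1LC3B, an autophagy gene, fell by 0.40 (SE 0.04), ZCCHC14 by 0.30 (SE 0.04) and GSE1 by 0.21 (SE 0.03).

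The genes that stood out nearest to FENDRR on its far side were long noncoding RNAs, chosen after their values were seen. In the WT libraries 7 of them had no count, which allows up to 3 counts over the group. LINC02135 was counted 17, 21 and 11 times in the libraries labelled GFI1-KO, which is at least 14.6-fold higher than that floor. LINC01081, a noncoding RNA from the distal region that has been linked to FOXF1 control, was counted 13, 17 and 13 times (at least 12.8-fold higher). AC135012.3 gave 10, 10 and 14 counts (at least 10.1-fold), AC092327.2 gave 8, 12 and 12 (at least 9.54-fold), LINC00917 gave 6, 6 and 18 (at least 8.94-fold) and AC135012.2 gave 3, 11 and 4 (at least 5.37-fold). LINC01082 had 5, 4 and 0 counts, so its groups overlap. These RNAs lie 161 to 352 kb from the FOXF1 start and include 3 pairs that overlap on opposite strands (LINC01081 with LINC02135, LINC00917 with AC092327.2, AC135012.3 with LINC01082). The strand setting of the counting is not given in the sources used here, so reads of the partners cannot be told apart. Among the 41 neighbours with a count, 6 (14.6%) were at 0 in every WT library and counted in every library labelled GFI1-KO, as against 288 of 34356 genes (0.838%) in the whole table, and none showed the converse. The 6 genes are close together and do not vary independently, and no test was made of the share.

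The RefSeq starts of LINC01081 and LINC02135 lie back to back. In the deposited coordinates LINC02135 lies wholly inside LINC01081, on the opposite strand. The 183 bases between the RefSeq starts, chr16:86286248-86286430 of GRCh38.p14, are shown on the plus strand because neither gene had any WT count. They held no match to the 4 motifs and are therefore all in lower case.
LINC01081 and LINC02135: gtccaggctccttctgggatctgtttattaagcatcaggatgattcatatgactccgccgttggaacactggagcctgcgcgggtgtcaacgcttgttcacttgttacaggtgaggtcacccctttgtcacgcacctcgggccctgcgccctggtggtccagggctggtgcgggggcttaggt
Their GC content was 58.5%, with 9 CG pairs.

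**Figure D1:**
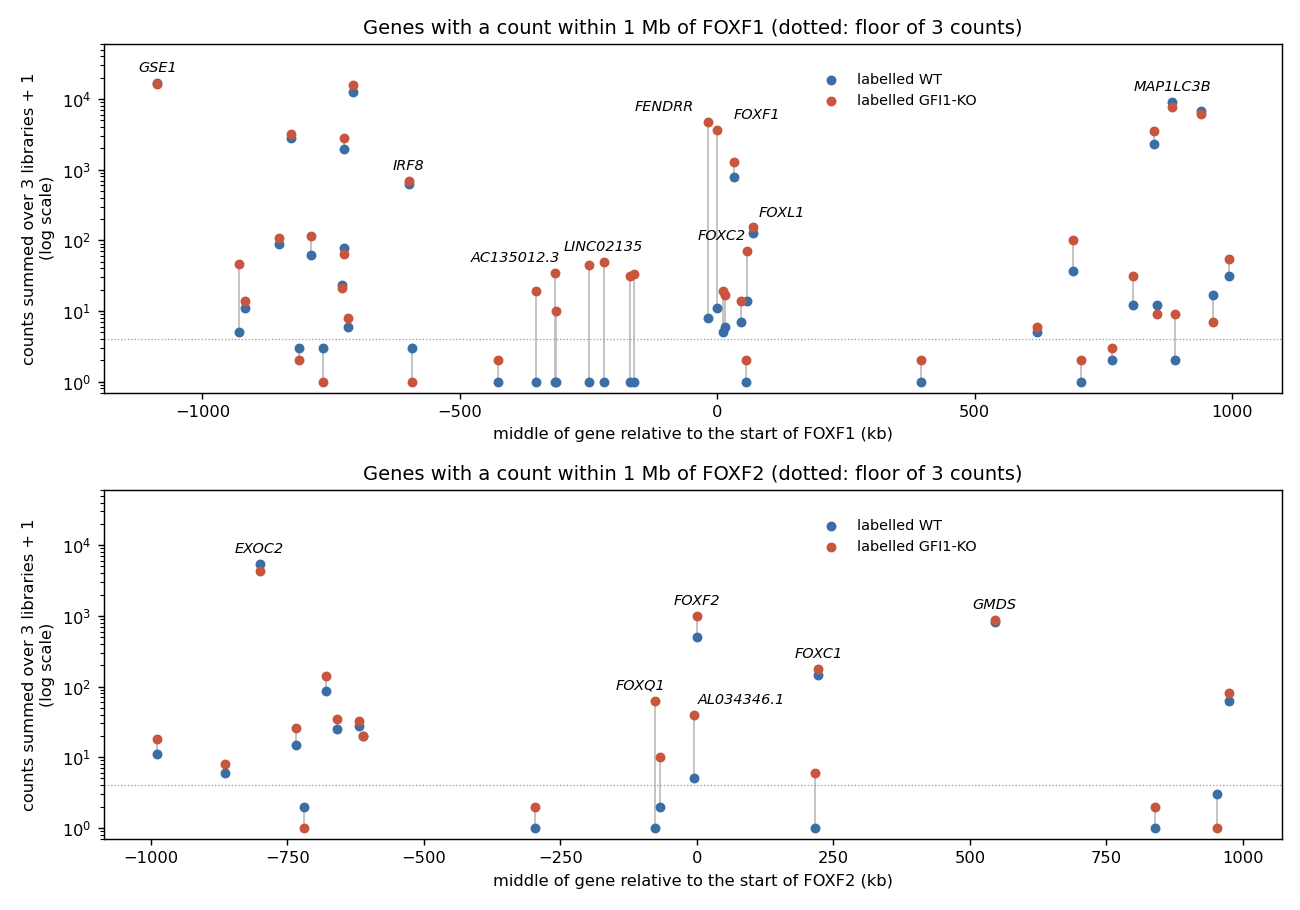
Counts summed over the 3 libraries of each group plus 1 (log scale), for genes with a count within 1 Mb of FOXF1 (top) and FOXF2 (bottom), against the distance in kb from the middle of the gene to the start of FOXF1 or FOXF2. A grey line joins the WT (blue) and GFI1-KO (red) sums of a gene, and the dotted line marks 3 counts. FENDRR, FOXF1, FOXQ1 and the noncoding genes upstream of FENDRR have long lines, FOXL1 and IRF8 short ones.

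Downstream of FOXF1, the next gene, the noncoding AC009108.3, stayed at 3, 0 and 1 counts against 3, 8 and 7, and did not pass the filter. FOXC2, a forkhead factor of lymphatic vessels at chr16:86566829-86569728 on the plus strand, starts 51.4 kb beyond the FOXF1 end. It was counted 6, 3 and 4 times in the WT libraries and 21, 21 and 28 times in the libraries labelled GFI1-KO. The groups did not overlap, as for 74.4% of tested genes, but all values are low. Normalized counts went from 4.55 ± 1.44 to 22.1 ± 3.69 (SD, n = 3), a log2 fold change of 2.24 (SE 0.42), which became 1.52 with the correction for GC content. Of its 50-base words, 6.45% also occur in FOXC1 or the overlapping antisense gene FOXC2-AS1.

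FOXL1, a forkhead factor of the gut mesenchyme at chr16:86576368-86582160, is the next coding gene after FOXC2. Its counts were 37, 36 and 54 in the WT libraries and 66, 39 and 46 in the libraries labelled GFI1-KO. The groups overlap, with the highest and the lowest normalized count both in the libraries labelled GFI1-KO. Normalized counts were 44.8 ± 10.3 and 47.7 ± 13.5 (SD, n = 3), the log2 fold change was 0.09 (SE 0.24), and its sign turned in 4 of 16 alternatives, among them -0.03 without WT replicate 1 and -0.16 without GFI1-KO replicate 1. Its summed ratio of 1.06 had a counting interval of 0.834 to 1.36. FOXL1 thus lay 61.0 kb from the FOXF1 end with a difference smaller than its spread.

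FOXF2, the paralog of FOXF1 on chromosome 6 (chr6:1389576-1395603, plus strand), was expressed in both groups. Its counts were 179, 180 and 141 in the WT libraries and 330, 346 and 318 in the libraries labelled GFI1-KO. Every library labelled GFI1-KO was above every WT library. Normalized counts went from 177 ± 26.2 to 314 ± 14.3 (SD, n = 3), a log2 fold change of 0.83 (SE 0.10), or 4.38 to 7.68 FPKM. Corrected for GC content and gene length it was 0.08, so the size of the difference depends on that setting. In the WT libraries the FPKM of FOXF2 was above that of FOXF1 in every library, and in the libraries labelled GFI1-KO it was below it in every library (7.69, 8.03 and 7.33 against 19.2, 19.9 and 20.3).

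Within 1 Mb of FOXF2 there are 26 other genes, of which 9 passed the filter, 3 were higher, 1 was lower and 5 were not called (median log2 fold change 0.22). By the fixed rule the named genes are EXOC2, a subunit of the exocyst, which fell by 0.52 (SE 0.04), and the noncoding AL357054.4, which rose by 0.53 (SE 0.24, Benjamini-Hochberg adjusted p = 0.0484 in the quasi-likelihood test of edgeR) and lost the call in 12 of 16 alternatives, with 0.47 to 0.56 where a library other than GFI1-KO replicate 2 was left out. The shares called, 33.3% higher and 11.1% lower, stand beside 36.5% and 35.9% of all tested genes. The 2 others that were higher lie next to FOXF2 and were chosen after their values were seen. Both passed the filter through the libraries labelled GFI1-KO, in which they were high, so the filter fixed their direction. FOXQ1, a forkhead factor 74.8 kb upstream, had no count in the WT libraries and 23, 20 and 19 in the libraries labelled GFI1-KO, at least 18.5-fold higher than the floor over the WT group. AL034346.1, an antisense RNA 4.51 kb upstream, went from 1, 1 and 2 counts to 12, 13 and 14 (log2 fold change 3.02, SE 0.60). FOXC1, 214 kb downstream, had 47, 59 and 40 counts against 66, 58 and 53, which overlap (0.11, SE 0.21). Of the 19 neighbours of FOXF2 with a count, 2 (10.5%) were at 0 in every WT library and counted in every library labelled GFI1-KO. In the whole table this held for 0.838% of genes with a count. The 2 genes are FOXQ1 and FOXCUT, an RNA beside FOXC1 with 2, 1 and 2 counts.

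Over the rest of the forkhead family, 40 genes, 27 passed the filter, 12 were higher, 7 lower and 8 not called, and the median log2 fold change was 0.11 beside 0.00 over all tested genes. The shares called, 44.4% and 25.9%, stand beside 36.5% and 35.9% of all tested genes. With the correction for GC content 5 were higher. By the rule for naming, FOXP3, the factor of regulatory T cells, rose by 1.08 (SE 0.25), FOXD2 by 1.07 (SE 0.14) and FOXD1 by 1.01 (SE 0.12), and all 3 lost the call with the correction (0.44, 0.33 and 0.24), FOXD2 only where the correction was made without the replicate block. FOXA1, a pioneer factor of lung epithelium, fell by 0.70 (SE 0.07), FOXN2 by 0.66 (SE 0.07) and FOXJ3 by 0.48 (SE 0.04). FOXN2 turned to an increase of 0.05 with the correction. These 6 changes were smaller than that of FOXQ1, described above, which is in the same list. FOXP2, chosen after its values were seen, went the other way, from 6, 8 and 3 counts to 0 in every library labelled GFI1-KO, and was not tested.

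**Figure D2:**
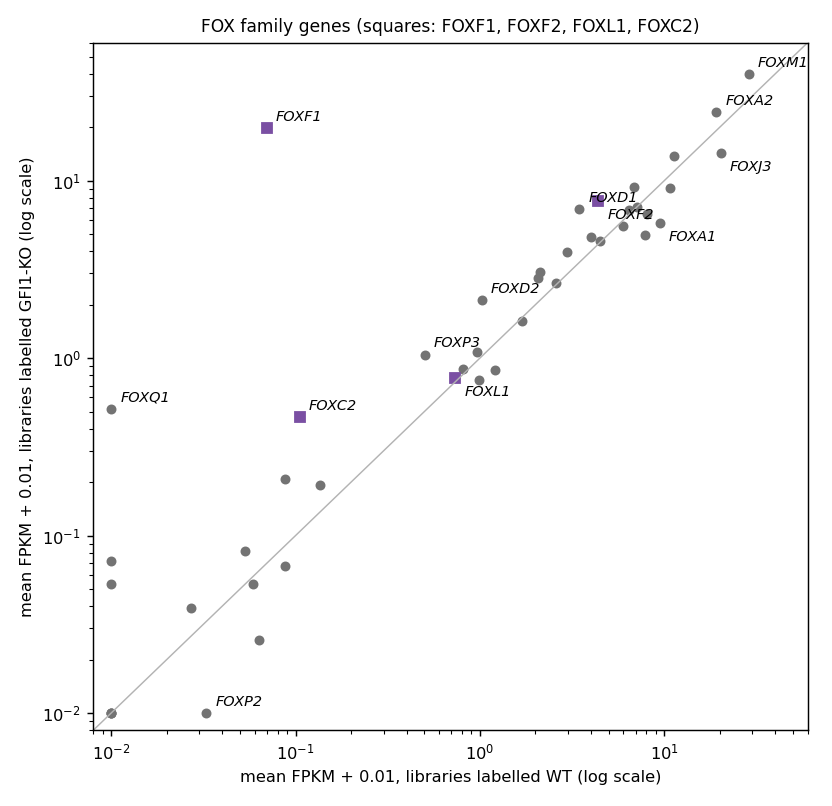
Mean FPKM + 0.01 of each forkhead gene in the WT libraries (horizontal) and in the libraries labelled GFI1-KO (vertical), both on log scales, with the line of equal levels. Squares are FOXF1, FOXF2, FOXL1 and FOXC2. Most of the family lies along the line, and FOXF1 and FOXQ1 lie farthest above it.

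GLI3, the main GLI repressor, was the most abundant GLI transcript of the WT libraries. It is read from the minus strand at chr7:41960950-42237870, and its counts were 1258, 1233 and 1212 in the WT libraries and 336, 341 and 329 in the libraries labelled GFI1-KO. Replicates lay within a narrow range in both groups and the groups were far apart. Normalized counts went from 1308 ± 49.6 to 318 ± 7.10 (SD, n = 3), a log2 fold change of -2.04 (SE 0.06), or 7.25 to 1.74 FPKM. Over all alternatives the value stayed between -2.08 and -1.98. GLI3 was the only gene among the 8 tested members that fell.

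GLI1, the GLI activator that is itself a target of the pathway (chr12:57460135-57472262, plus strand), moved the other way. Its counts were 17, 11 and 15 in the WT libraries and 62, 75 and 91 in the libraries labelled GFI1-KO, where the replicates were spread more widely than for GLI3. Normalized counts went from 15.1 ± 2.67 to 71.9 ± 13.3 (SD, n = 3), a log2 fold change of 2.24 (SE 0.26), which was 1.73 with the correction for GC content. The ratio of summed counts was 4.74 (95% Poisson interval 3.41 to 6.73), and the level was low in both groups, 0.218 and 1.03 FPKM. ARHGAP9 overlaps GLI1 on the other strand, so without the strand setting reads of the pair cannot be told apart.

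GLI2, the remaining GLI factor, was near the floor with 6, 3 and 3 counts in the WT libraries and 3, 3 and 7 in the others. Its ratio of summed counts was 0.969 with a counting interval of 0.408 to 2.32, so a change of that size was not detectable at this depth. As a share of the summed FPKM of the 3 GLI genes, GLI3 made up 95.9% to 97.4% in the WT libraries and 57.1% to 66.9% in the libraries labelled GFI1-KO. The share of GLI1 was 2.26% to 3.38% and 32.2% to 41.1%. The sum itself was 7.31 to 7.77 FPKM in the WT libraries and 2.62 to 2.98 FPKM in the others, so GLI transcripts as a whole were fewer and GLI3 was still the most abundant of them. These are RNA levels and hold nothing on how the GLI proteins were processed.

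**Figure D3:**
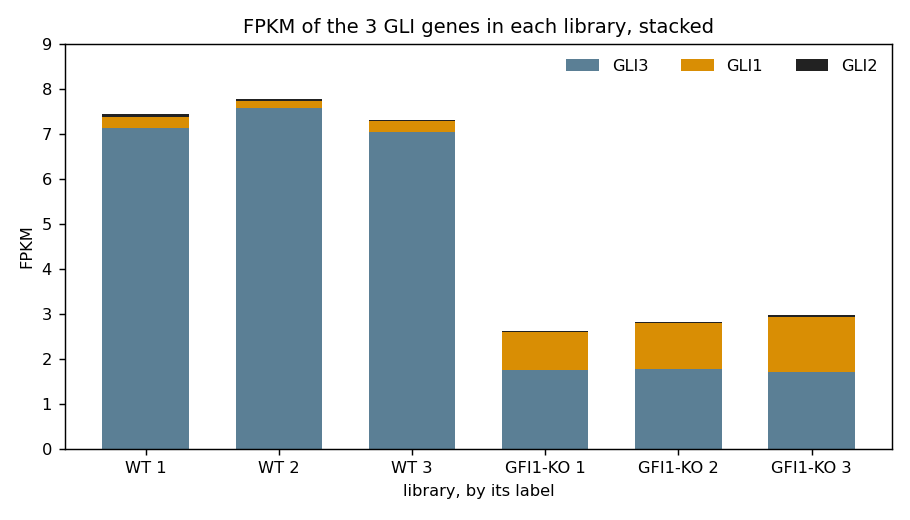
FPKM of GLI3, GLI1 and GLI2 stacked for each library, with the 3 WT libraries at the left and the 3 labelled GFI1-KO at the right. The bar height falls from 7.31 to 7.77 FPKM to 2.62 to 2.98 FPKM while the GLI1 segment grows, and GLI2 is hardly visible.

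PTCH1, the hedgehog receptor and a classical GLI target (chr9:95442980-95517057, minus strand), was counted 269, 271 and 265 times in the WT libraries and 321, 301 and 321 times in the libraries labelled GFI1-KO. After scaling for depth the groups overlap, at 284.5 ± 13.5 and 298 ± 11.0 normalized counts (SD, n = 3). Its log2 fold change was 0.07 (SE 0.08) and between 0.02 and 0.10 over all alternatives. The ratio of summed counts was 1.05, with a counting interval of 0.953 to 1.15. A rise of PTCH1 by the ratio seen for GLI1 lies outside that interval. Antisense genes overlap PTCH1, so part of its reads may be theirs. RefSeq gives PTCH1 5 starts, and the window before 1 of them holds a GLI motif. It is shown because PTCH1 is a known GLI target, as GLI1 is, although the PTCH1 levels of the groups overlap here. It lies at chr9:95509267-95509516 of GRCh38.p14 on the minus strand, and the capitals mark the reverse complement of the GLI motif.
PTCH1: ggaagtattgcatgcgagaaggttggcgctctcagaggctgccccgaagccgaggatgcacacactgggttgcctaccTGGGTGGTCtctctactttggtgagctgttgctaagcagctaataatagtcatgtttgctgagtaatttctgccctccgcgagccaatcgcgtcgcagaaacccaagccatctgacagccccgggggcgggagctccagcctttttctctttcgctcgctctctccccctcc
The match lies 164 to 172 bases before that start. Another PTCH1 window holds the forkhead motif at 2 places.

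HHIP, which binds hedgehog ligands at the cell surface, was close to absent. It had 4, 0 and 2 counts in the WT libraries and 3, 1 and 0 in the libraries labelled GFI1-KO, at or about the floor in each. The ratio of summed counts was 0.596, with an interval of 0.124 to 2.51 that covers a change in either direction. Of the 3 classical readouts of the pathway, GLI1 was thus higher, PTCH1 differed by less than its spread and HHIP could not be judged at this depth.

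Of 41 further genes of the hedgehog pathway, 36 passed the filter, 16 were higher, 12 were lower and 8 were not called. These shares, 44.4% and 33.3%, stand beside 36.5% and 35.9% of all tested genes, and the median log2 fold change was 0.17. Among 7 tested genes of ligands and their release, 3 were higher and 3 lower, 42.9% each way. IHH was the ligand that rose, from 14, 7 and 13 counts to 44, 37 and 47 (1.74, SE 0.31, and 0.92 with the correction for GC content). IHH passed the filter through the libraries labelled GFI1-KO, in which it was high, so the filter favoured that direction. SHH, named after its values were seen, had 3, 4 and 0 counts against 4, 8 and 3 and was not tested. DISP1, which releases the lipid-bearing ligand from the cell, fell by 1.21 (SE 0.18) and SCUBE2, which carries it away, by 1.02 (SE 0.26). Its relative DISP2 rose by 0.69 (SE 0.05), the acyltransferase gene HHAT rose by 0.26 (SE 0.10) and DISP3 fell by 0.23 (SE 0.09). The latter 2 lost the call when any 1 of 4 libraries was left out, HHAT at 0.20 to 0.26 (WT replicates 1 and 3, GFI1-KO replicates 1 and 2) and DISP3 at -0.23 to -0.19 (WT replicates 1 and 2, GFI1-KO replicates 1 and 2). DESeq2 did not call HHAT (0.26) or DISP3 (-0.23) either.

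Among the receptors and coreceptors, the coreceptor gene BOC rose most, from 10, 21 and 20 counts to 167, 194 and 210, with a log2 fold change of 3.31 (SE 0.20) and no overlap. SMO, the signal transducer of the pathway, rose from 102, 105 and 119 counts to 227, 279 and 232 (1.02, SE 0.12, and 0.42 with the correction for GC content). CDON, the coreceptor related to BOC, fell by 1.26 (SE 0.12), and GPC3, a glypican that competes for the ligand, fell by 1.90 (SE 0.13). The coreceptors BOC and CDON therefore moved in opposite directions.

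Of 16 tested intracellular regulators, 7 were higher and 6 lower, none by more than 1.11 in size. These shares, 43.8% and 37.5%, stand beside 36.5% and 35.9% of all tested genes. IQCE, a protein of the ciliary zone that holds SMO, rose by 1.11 (SE 0.05), KIF7, a kinesin that controls GLI processing at the cilium, by 1.06 (SE 0.08) and the kinase gene ULK3 by 0.86 (SE 0.05). EFCAB7 fell by 0.61 (SE 0.08), the protein kinase A gene PRKACB by 0.43 (SE 0.05) and BTRC, a ubiquitin ligase subunit for GLI3, by 0.33 (SE 0.06). EFCAB7 and PRKACB turned to increases of 0.08 and 0.25 with the correction for GC content. Another protein kinase A gene, PRKACA, chosen after its values were seen, rose by 0.77 (SE 0.04), and by 0.43 to 0.80 over the alternatives. Its level went from 25.7 to 43.3 FPKM, that of PRKACB from 10.2 to 7.49 FPKM. Among 8 tested GLI-related zinc finger factors, GLI4 rose by 0.96 (SE 0.07), ZIC5 by 0.53 (SE 0.07) and ZIC2 by 0.34 (SE 0.04), and GLIS2 fell by 0.76 (SE 0.19). With the correction ZIC2 was -0.20 and GLI4 was 0.14 and no longer called.

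**Figure D4:**
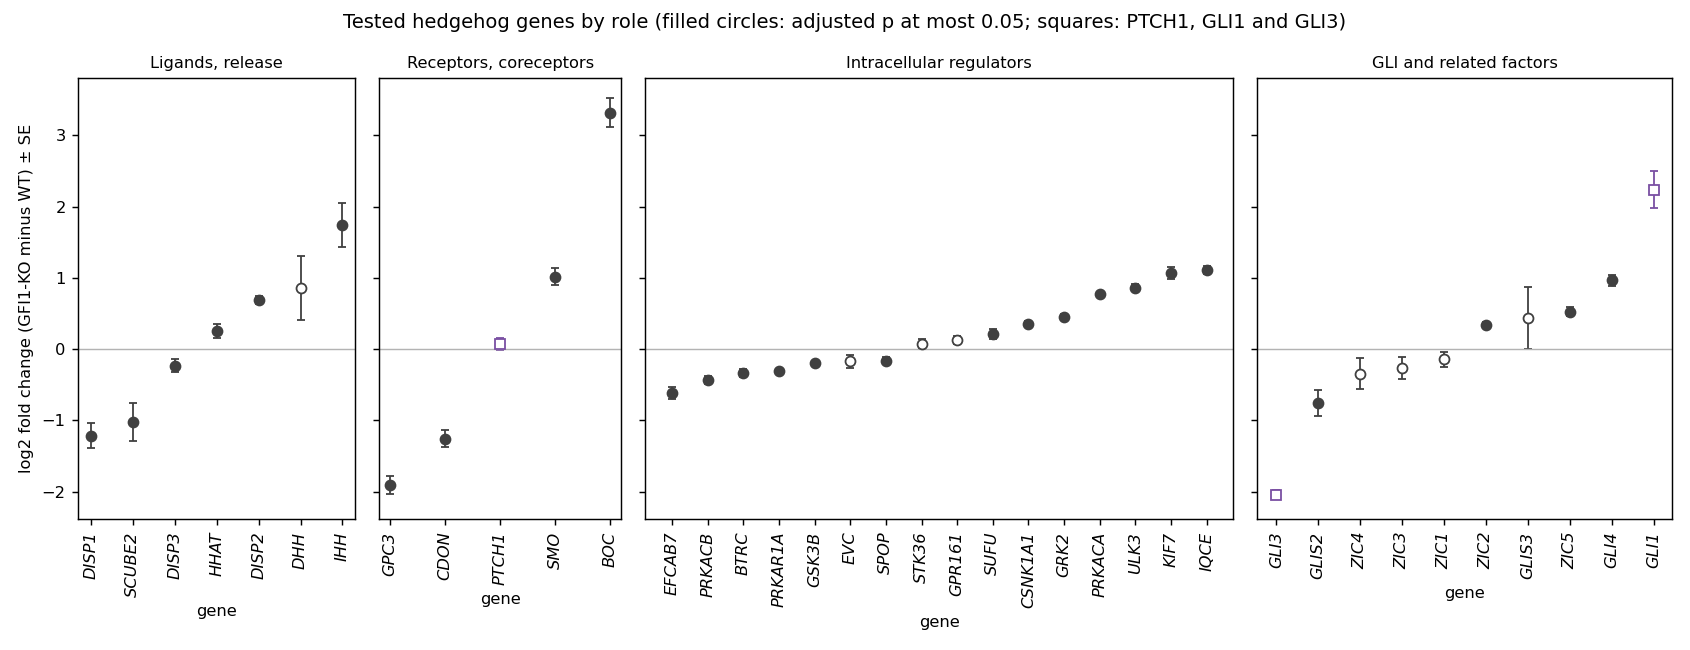
Log2 fold change (GFI1-KO minus WT) with its standard error for tested hedgehog genes, in panels by role and sorted by value. Filled circles are list genes with an adjusted p of at most 0.05 and open circles are not called, and squares are PTCH1, GLI1 and GLI3, which were given no test. BOC (3.31) and GLI1 (2.24) lie highest and GLI3 (-2.04) and GPC3 (-1.90) lowest, while the intracellular regulators lie between -0.61 and 1.11.

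Of 11 tested further genes that are known to respond to GLI factors in some tissue, 4 were higher, 4 lower and 3 not called (median log2 fold change 0.17). The share each way, 36.4%, stands beside 36.5% higher and 35.9% lower over all tested genes. SFRP1, a secreted WNT antagonist, rose from 26, 21 and 19 counts to 68, 59 and 57 (1.31, SE 0.24). HAND2, a factor of mesenchyme and sympathetic neurons, rose by 1.05 (SE 0.21) and the cell cycle factor FOXM1 by 0.48 (SE 0.04). NKX2-2, a factor of the ventral neural tube, fell from 35, 35 and 39 counts to 5, 8 and 3 (-2.90, SE 0.37). NKX2-2 passed the filter through the WT libraries, in which it was high, so the filter fixed its direction. MYCN, a proto-oncogene, fell by 1.51 (SE 0.10) and the Notch ligand gene JAG2 by 1.08 (SE 0.07). As many tested genes of the list were called higher as lower, with NKX2-2 among the latter.

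Of 15 tested genes that are linked to FOXF1 in lung mesenchyme or vessels, 7 were higher, 4 lower and 4 not called, and the median was 0.47. The shares called, 46.7% and 26.7%, stand beside 36.5% and 35.9% of all tested genes. SEMA3C, PDGFRA and ACTA2 passed the filter through the libraries labelled GFI1-KO, and WNT11 through the WT libraries. The filter thus fixed their direction, and the last 3 were chosen after their values were seen. With at least 10 counts in every library, 4 of 11 tested were higher. In the mesenchyme list TBX2, a T-box factor of the lung mesenchyme, rose from 486, 433 and 470 counts to 1960, 1972 and 2185 (1.98, SE 0.05), WNT5A by 1.40 (SE 0.13) and TBX3 by 0.77 (SE 0.11). PDGFRB, a receptor of pericytes, fell from 136, 128 and 135 counts to 17, 15 and 15 (-3.24, SE 0.20). In the vessel list the guidance gene SEMA3C rose from 1, 4 and 2 counts to 37, 43 and 41 (3.88, SE 0.43) and the integrin gene ITGB3 by 1.57 (SE 0.21), while FLT1, a VEGF receptor, fell by 1.61 (SE 0.20) and PECAM1 by 1.12 (SE 0.08). PECAM1 and PDGFRB are also in the marker lists below.

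Markers of mesenchymal and vascular cells were read beside FOXF1 because these cells normally express it. The 10 fibroblast markers summed to 27.6 to 28.8 FPKM in the WT libraries and 23.3 to 24.5 FPKM in the libraries labelled GFI1-KO, with DCN at 0 and POSTN and THY1 at 3 counts or fewer in every library. Of 6 tested, 3 were higher and 3 lower. The largest change was that of COL3A1, which rose from 2, 3 and 2 counts to 129, 143 and 170 (5.75, SE 0.30). COL3A1 and PDGFRA, which was also higher, passed the filter through the libraries labelled GFI1-KO, so the filter fixed their direction. FBLN1 rose by 0.14 (SE 0.05) and turned to -0.26 with the correction for GC content. PDGFRB fell by 3.24 (SE 0.20), COL1A2 by 0.54 (SE 0.04) and COL1A1 by 0.41 (SE 0.14). COL1A1 lost the call with DESeq2 (-0.41) and without GFI1-KO replicate 3 (-0.34). The 10 endothelial markers summed to 5.40 to 5.78 and 8.72 to 9.21 FPKM, with 2 of 5 tested higher and 1 lower and with ERG, KDR, TEK, TIE1 and VWF at 3 counts or fewer. Mean levels rose from 1.20 to 5.48 FPKM for EGFL7 and fell from 3.56 to 1.62 FPKM for PECAM1. CLDN5, also higher, went from 10, 11 and 9 counts to 48, 64 and 42. It passed the filter through the libraries labelled GFI1-KO, so the filter favoured that direction. The 8 smooth muscle markers summed to 1.41 to 1.76 and 2.04 to 2.49 FPKM, with MYOCD at 3 counts or fewer. Of 4 tested, 1 was higher, ACTA2, whose direction the filter fixed, as said above. The 10 blood markers summed to 1.00 to 1.13 and 0.810 to 1.02 FPKM, with 1 tested and not called. Of the 12 neuroendocrine markers 7 were higher, SYP most with 1.21 (SE 0.03), and 5 were lower. Among the 5 were SCG3 with -0.71 (SE 0.04) and SYT1 with -0.54 (SE 0.06). With the correction for GC content SYT1 was -0.067 and no longer called. Of all tested genes, 36.5% were higher and 35.9% lower. In bulk RNA, fewer cells of a type and less RNA per cell cannot be told apart, and the part of such cells in the FOXF1 and FENDRR counts was not tested.

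Of the 9 genes of the Polycomb and Trithorax complexes that FENDRR is known to bind, all passed the filter, 3 were higher, 5 lower and 1 not called, and the median was -0.10. The shares called, 33.3% and 55.6%, stand beside 36.5% and 35.9% of all tested genes. EZH1 rose by 0.36 (SE 0.06), ASH2L by 0.27 (SE 0.04) and WDR5 by 0.25 (SE 0.04). The Polycomb subunits SUZ12 and EZH2 fell by 0.64 (SE 0.04) and 0.44 (SE 0.04), and JARID2 fell by 0.25 (SE 0.07). No gene of the list changed by more than 0.64 in size. With the correction for GC content 5 were higher and 2 lower, WDR5 was -0.23, and SUZ12 and EZH2 were no longer called (-0.062 and -0.0057).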

How the data were processed

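RNA-Seq counts of 3 libraries labelled WT and 3 labelled GFI1-KO were analysed. According to the study's methods, mRNA was selected with poly-T beads, sequenced on a NovaSeq system, aligned to GRCh38/hg38 with Hisat2 and counted per gene with featureCounts, whereas the submitters' processing notes name Bowtie2, HTSeq and hg38. The authors deposited raw counts per gene, without normalization, and, per gene, other values in bases (length and coordinates). The annotation, the strand setting and the treatment of reads that match several places are not given in the sources used here.

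Counts were tested with edgeR 4.0.16 in R 4.3.3 (TMM factors, filterByExpr, quasi-likelihood F test, Benjamini-Hochberg adjustment, adjusted p of at most 0.05). The study's methods name DESeq2, which was run as an alternative. The SE was obtained from the log2 fold change and its F statistic. Normalized counts were scaled to the mean TMM effective size of the 6 libraries. FPKM used the deposited gene length and library total. Intervals (95%) and the floor of 3 counts cover counting error only, since copied reads are not independent molecules. Tested on simulated data for GFI1-KO against WT (17514 genes, 200 of them changed by 1 on the log2 scale), edgeR recovered 90.5% of the changed genes and 5.24% of its calls were unchanged genes. The simulation gave all genes the same dispersion and no trend with GC content. These rates therefore may not hold for the calls made here.

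Members and lists were chosen with earlier results of these data known. The genes named are the 10 members, GFI1, the 3 genes called higher and the 3 called lower with the largest log2 fold change in each other list (mean of at least 20 counts), the genes next to FOXF1 and the 5 protein-coding genes most like it in log2 CPM (prior count 2). Others are said to be chosen after their values were seen. Some genes that the rule takes are not reported here.

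Alternatives were DESeq2 1.42.0, limma-voom (limma 3.58.1), other scaling factors, other filters, an adjusted p of 0.01, the replicate number as a block, natural spline offsets for GC content and gene length (5 degrees of freedom, GC content known for 99.4% of tested genes) with and without the block, and each library left out. Libraries were not paired. Words of 50 bases were compared over GENCODE release 44 transcripts to find shared sequence. Promoter windows are the 250 bases before RefSeq starts of GRCh38.p14.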

Additional observations from a re-analysis of the deposited data

How the results depend on the processing

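Of the counts of called genes under the alternatives, 454 stayed within 1.5 times the reported count and 22 did not. With at least 10 counts required in every library, 2 members were higher, as were 1 neighbour of FOXF2, 4 FOXF1-linked genes, 1 fibroblast and 0 smooth muscle markers, fewer genes being tested. Without a filter, 14 neighbours of FOXF1 and 2 smooth muscle markers were higher. Corrected for GC content and gene length, alone and with the replicate block, 5 and 6 forkhead genes were higher, 5 and 5 FENDRR-linked genes were higher and 2 and 2 lower, 3 and 3 neuroendocrine markers were higher, and 1 and 1 blood markers were lower. At an adjusted p of 0.01, 3 FENDRR-linked genes were lower. Leaving out a library gave 3 to 5 FENDRR-linked genes lower (3 without GFI1-KO replicate 3), 1 to 2 smooth muscle markers higher (2 without WT replicate 2 or GFI1-KO replicate 2) and 0 to 1 blood markers lower (1 without WT replicate 1).

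The corrected log2 fold changes that turned in sign were, without and with the replicate block, -0.0150 and -0.0191 for FOXL1, 0.0756 and 0.0745 for EFCAB7, 0.25 and 0.25 for PRKACB, -0.20 and -0.20 for ZIC2, -0.23 and -0.23 for WDR5, -0.26 and -0.26 for FBLN1, 0.0456 and 0.0436 for FOXN2, and -0.29 and -0.28 for FOXC1. Leaving out libraries gave -0.16 to 0.29 for FOXL1 and -0.0240 to 0.30 for FOXC1. FOXF1 lay between 7.91 and 8.68, with the ends set by leaving out WT replicate 2 and WT replicate 1, and FENDRR between 8.99 and 9.38. Of the other values of single genes, 1304 kept their direction and their side of the threshold and 57 lost the call, and the cause of these shifts was not tested. Same-numbered libraries were not alike (r of -0.01, 0.01 and 0.02 over 11859 genes), so the numbers give no pairing, and with the replicate block alone 5 members were higher and 1 lower.

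The ratio of FENDRR to FOXF1 was 0.668 to 0.681 with a library labelled GFI1-KO left out. Low counts limit FOXF1, FENDRR and FOXC2 in the WT libraries and GLI2 and HHIP in all. An exact permutation test of 3 libraries against 3 cannot go below 0.1.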
